A study of Arabidopsis thaliana with 6 samples.

Results

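The sucrose breakdown, glycolysis and fermentation enzymes are a set of 42 genes, out of 33602 in the deposited table, whose products carry sucrose to pyruvate and pyruvate on to ethanol, mostly in the cytosol. They were chosen by locus identifier from the known steps of the pathway: sucrose synthase, UDP-glucose pyrophosphorylase, phosphoglucomutase, hexokinase, glucose-6-phosphate isomerase, both kinds of phosphofructokinase, aldolase, triose phosphate isomerase, glyceraldehyde-3-phosphate dehydrogenase, phosphoglycerate kinase, phosphoglycerate mutase, enolase, pyruvate kinase, pyruvate decarboxylase and alcohol dehydrogenase. The choice names loci and no measured value, but it was made with earlier results of these data known. All 42 genes had a row in the table. A level of at least 1 RPKM (reads relative to gene length and to library size) in 2 or more libraries, the minimum for testing, was reached by 31, and the other 11 are described by their values alone.

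The libraries were polyadenylated root RNA of Arabidopsis thaliana seedlings 8 days old. Libraries 1 and 2 were Col-0 wild type given phosphate (P+), libraries 3 and 4 were Col-0 grown on a medium that lacked it (P-), and columns 5 and 6 were the mutant phl2 on that same deficient medium. PHL2 encodes a MYB-type relative of PHR1, the activator of phosphate starvation genes. No phl2 roots given phosphate were analysed here, so a constant effect of the mutation and an altered response to deficiency cannot be told apart. The labels name neither the phl2 allele nor the plants behind each replicate, and p-values thus measure only how far these libraries differ, which may be technical spread.

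Both phl2 columns shared their reads: once the worth of a read was divided out, the read numbers were equal in 35 of the 40 members detected in phl2, and in 81.0% of all genes detected there. Their mean therefore counted as 1 sample, with no spread of its own. About 616052 to 661140 reads stood behind the table in the P+ libraries, 909052 to 914774 in the P- libraries and 666806 to 697945 in the phl2 columns, which was 5.44% to 9.07% of the totals that the values are divided by. Depth thus moved with the groups, and its part in the results was not tested. The strand that was counted is not given in the sources used here, and if it was the strand opposite to the genes in these strand-specific libraries, the levels rest on the few reads left on that strand, which was not tested. Each of 7 root marker genes was above 0 in all 6 columns, and they summed to 11.3 to 13.1 RPKM in P+, 26.1 to 28.5 in P- and 16.5 to 18.9 in phl2. The 10 shoot photosynthesis markers summed to 21.1 to 23.5 RPKM in P+, 12.9 to 16.3 in P- and 6.35 to 7.35 in phl2, and 0 of the 10 were at 0 throughout. The part of either shift in the results was not tested. PHL2 itself was at 1.65 and 2.37 RPKM in P+, 2.14 and 2.24 in P- and 1.04 and 0.93 in phl2. Its difference in phl2, -0.68 ± 0.22 (adjusted p = 0.0554) by limma, was not called, and after rescaling it was -0.25 ± 0.24 (adjusted p = 0.622).

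Sucrose that reaches the root is split either by invertase into free hexoses or by sucrose synthase into fructose and UDP-glucose, and the second route can spend pyrophosphate where the first spends ATP. Glycolysis then has steps at which plants own a classical enzyme and a bypass: ATP-dependent phosphofructokinase (PFK) beside pyrophosphate-dependent phosphofructokinase (PFP), and phosphorylating glyceraldehyde-3-phosphate dehydrogenase (GAPC) beside a non-phosphorylating one. The bypass enzymes are known for sparing ATP and free phosphate, which fall in phosphate-starved plants, and sucrose synthase, pyruvate decarboxylase and alcohol dehydrogenase are also known from roots short of oxygen.

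As deposited, most tested genes of the pathway were called higher in wild type without phosphate, and fewer were after a rescaling of the libraries. Of the 31 tested genes, 23 rose, 0 fell and 8 were not called by limma on log2(RPKM + 1) (adjusted p under 0.05), where 28% of the 11463 genes tested were called higher and 4.45% lower. The median log2 change of the 31 was 0.77, from 0.10 to 1.39, beside 0.33 for all tested genes. In 28 of the 31 both P- libraries lay above both P+ libraries, as they did in 62.1% of all tested genes. Because 9121 of the 11463 genes had a log2 change above 0, each change is also given after the libraries were rescaled by their median ratio over all tested genes, which brought the median of all genes to 0.00470. On that rescaled scale 10 of the 31 rose and 0 fell, where 8.1% of all tested genes were called higher and 11.7% lower, and the median of the 31 was 0.39. Among the 31, SUS4 and SUS3 reached 1 RPKM in P- alone, so the group where they were high brought them into the test. Of the other 29, 22 rose as deposited and 9 after rescaling. Fewer cells of a type and less RNA per cell cannot be told apart in such bulk samples.

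These counts leaned on single libraries. As deposited, 14 genes rose without library 2, 6 without library 3 and 14 without library 4, and after rescaling 0 rose without library 3 or without library 4. The genes called in each of the 6 fits that left out a library, as deposited, were PFK7, TPI, GAPC2, ENO2 and the pyruvate kinase AT5G63680, beside SUS4, which reached the level for testing through P- alone. Of those fits, the ones without column 5 or column 6 kept every wild-type library, and no call among the 31 changed. They thus say little about how steady these calls are.

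In phl2 these genes stood below deficient wild type as deposited, in step with most of the table. The phl2 mean was 1 sample in the fit, so its standard errors and p-values assume that it varies as the wild-type libraries do, which alone supply the spread. Of the 31 tested genes, 0 rose and 15 fell (limma, adjusted p under 0.05), where 0.288% of all tested genes were called higher and 19.5% lower, and after rescaling 0 were called in either direction. Among all tested genes 0.0698% were then called higher and 0.0174% lower. An unadjusted p under 0.05 (limma) was reached by 0 of the 31 and by 2167 of all 11463 tested genes. The median log2 difference of the 31 was -0.65 as deposited, beside -0.48 for all tested genes, and -0.07 after rescaling, with 9 of the 31 above 0. Both phl2 columns lay below both P- libraries in 30 of the 31, as in 83.4% of all tested genes. As deposited 0 fell without library 3, without library 4 or without column 5, and 29 with both columns counted as replicates. Both comparisons use the same deficient wild-type libraries, so a high value there raises the change in deficiency and lowers the difference of phl2.

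**Figure D1:**
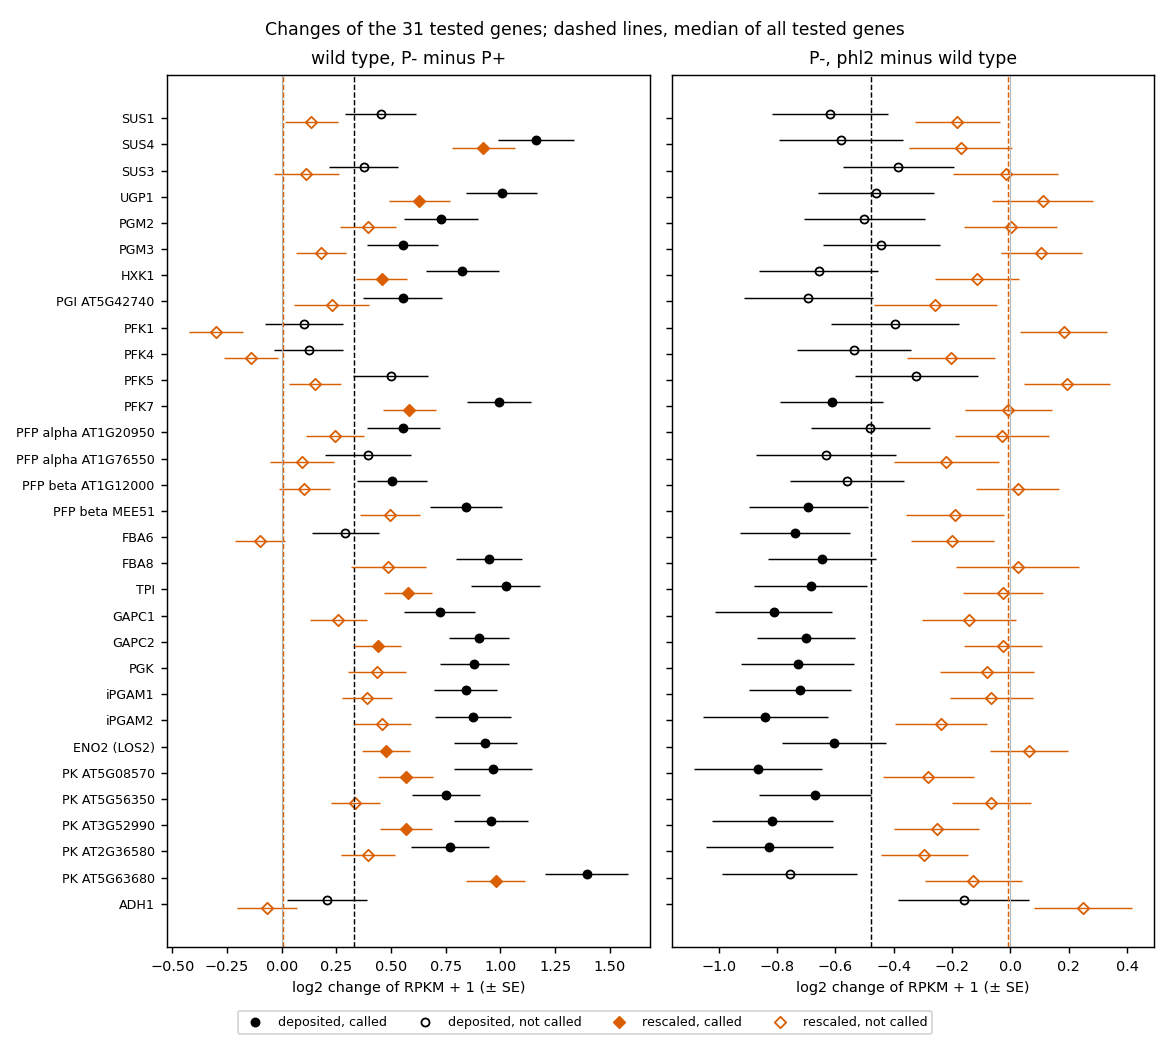
Log2 change of each of the 31 tested genes in wild type, P- minus P+ (left), and in deficient roots, phl2 minus wild type (right), on the log2(RPKM + 1) scale with limma standard errors. Black circles are values as deposited and orange diamonds rescaled values, filled where called, and dashed lines mark the median of all tested genes. On the left 23 black and 10 orange symbols are filled, and on the right 15 black and 0 orange, while PFK1, PFK4, FBA6 and ADH1 lie on opposite sides of 0 on those scales at left.

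Promoters of several of these genes hold the sequence that PHR1-type factors are known to bind, GNATATNC. It reads the same on both strands, so 1 scan covers both, and no other motif was searched. In the 250 bases before the annotated gene start (RefSeq annotation, build TAIR10.1) it occurred in 9 of the 42 genes (21.4%), in 8 of the 31 tested (25.8%), in 6.01% of the 10914 tested genes that code for protein and in 5.44% of 26711 protein-coding genes of the table. In the 1000 bases before the start it occurred in 15 of the 42 (35.7%) and in 20.3% of all protein-coding genes. The 9 genes were PGM3, PFK7, FBA8, GAPC1, ALDH11A3, iPGAM1, iPGAM2 and the pyruvate kinases AT2G36580 and AT5G63680. Of these, 8 were tested and rose in deficiency as deposited, as did 23 of all 31 tested members, and 2 of the 8, PFK7 and AT5G63680, also rose after rescaling. ALDH11A3, below the level for testing, was lower in both P- libraries. A match describes these letters and shows no binding. The stretch around the motif is given for some of the 9 genes, and not for PGM3, iPGAM2 and AT2G36580. The motif is in capitals, read 5′ to 3′ on the strand of the gene. The stretches lie at chr5:22923738-22923797 (plus strand), chr3:19629291-19629350 (minus), chr3:1080667-1080781 (plus, holding the motif at both of its positions), chr1:3167955-3168014 (minus), chr5:25489801-25489860 (plus) and chr2:10330090-10330149 (minus).
PFK7: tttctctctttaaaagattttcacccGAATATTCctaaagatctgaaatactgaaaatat
FBA8: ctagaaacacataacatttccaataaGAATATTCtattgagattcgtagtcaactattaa
GAPC1: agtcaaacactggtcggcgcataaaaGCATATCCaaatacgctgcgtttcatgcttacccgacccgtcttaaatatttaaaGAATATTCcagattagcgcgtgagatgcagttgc
iPGAM1: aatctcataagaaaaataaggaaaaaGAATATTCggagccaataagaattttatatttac
AT5G63680: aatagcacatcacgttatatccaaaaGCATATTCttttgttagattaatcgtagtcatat
ALDH11A3: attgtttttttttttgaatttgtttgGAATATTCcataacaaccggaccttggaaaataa
The motif began 40 bases before the gene start in PFK7, 120 in FBA8, 249 and 194 in GAPC1, 64 in iPGAM1, 238 in AT5G63680 and 75 in ALDH11A3. Its letters were GAATATTC in PFK7, FBA8, iPGAM1, ALDH11A3 and the nearer copy in GAPC1. In the genes not printed they were GAATATAC for PGM3, GTATATAC for iPGAM2 and GCATATTC for AT2G36580.

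Of the sucrose synthases, which split sucrose with UDP, SUS4 was the 1 of 3 that was called, and it was tested only because of its level in P-. SUS4 (AT3G43190, chr3:15179010-15184105), a form best known from oxygen-starved roots, was at 0.38 and 0.14 RPKM in P+, 2.06 and 1.6 in P- and 0.82 and 0.95 in phl2. The groups of wild type did not overlap, and the phl2 columns lay between them. Its log2 change in deficiency was 1.16 ± 0.17 (adjusted p = 0.00267) as deposited and 0.92 ± 0.14 (adjusted p = 0.00806) after rescaling, and without the filter on low values its adjusted p was 0.0655, not called. Its mean RPKM as deposited was 6.90-fold higher in P-, though the P+ values rest on about 11 and 4 reads. SUS1 (AT5G20830, chr5:7050217-7055398), its close relative and the highest of the 3, was at 1.38 and 1.2 RPKM in P+, 2.22 and 2.04 in P- and 0.96 and 1.11 in phl2. Its P- libraries were the highest and its phl2 columns the lowest, yet the change of 0.45 ± 0.16 (adjusted p = 0.0622) was not called. SUS3 had a log2 change of 0.37 ± 0.16 (adjusted p = 0.0935), also not called. SUS1 made up 55.0% of the summed sucrose synthase RPKM in P+ and 40.4% in P-. The longest exonic stretch that SUS1 and SUS4 share letter for letter is 38 bases.

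UDP-glucose from that reaction is turned into glucose 1-phosphate by UDP-glucose pyrophosphorylase, at the cost of pyrophosphate. UGP1 (AT3G03250, chr3:749309-754161) was at 1.49 and 1.71 RPKM in P+, 4.61 and 3.86 in P- and 2.6 and 3.0 in phl2. The 3 groups did not overlap, with phl2 in the middle. UGP1 rose by 1.01 ± 0.16 (adjusted p = 0.00378) as deposited and 0.63 ± 0.14 (adjusted p = 0.0264) after rescaling. Its phl2 difference of -0.46 ± 0.20 (adjusted p = 0.101) was not called and turned to 0.11 ± 0.17 after rescaling. The cytosolic phosphoglucomutases PGM2 and PGM3 then make glucose 6-phosphate. PGM3 (AT1G23190, chr1:8219808-8224547) was at 2.31 and 1.94 RPKM in P+, 3.87 and 3.31 in P- and 2.22 and 2.52 in phl2, so that phl2 overlapped the libraries given phosphate. PGM2 (AT1G70730, chr1:26668646-26673166) was at 1.49 and 1.12, 2.7 and 2.91 and 1.57 and 1.81 RPKM in the same order, with phl2 just above P+ and the P- libraries at the top. Both rose as deposited, by 0.73 ± 0.17 (adjusted p = 0.0158) for PGM2 and 0.55 ± 0.16 (adjusted p = 0.0346) for PGM3, and were not called after rescaling (0.39 and 0.18).

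Free glucose enters through hexokinase. HXK1 (AT4G29130, chr4:14352037-14355201), which also serves as a glucose sensor, was at 2.04 and 1.53 RPKM in P+, 4.03 and 3.8 in P- and 1.96 and 2.27 in phl2. Deficient wild type stood apart from the other 4 columns, which overlapped. HXK1 rose by 0.83 ± 0.17 (adjusted p = 0.00956) as deposited and 0.46 ± 0.12 (adjusted p = 0.041) after rescaling. The cytosolic glucose-6-phosphate isomerase AT5G42740 (chr5:17135661-17141173) was at 0.98 and 1.39 RPKM in P+, 2.45 and 1.96 in P- and 0.91 and 1.05 in phl2. It rose as deposited (0.55 ± 0.18, adjusted p = 0.0469), and after rescaling its change of 0.23 ± 0.17 (adjusted p = 0.397) was not called. In phl2, 0 of these 8 tested genes upstream of phosphofructokinase were called lower as deposited (limma), where 19.5% of all tested genes were. An unadjusted p under 0.05 was reached by 6 of the 8 and by 5559 of all 11463 tested genes.

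ATP-dependent phosphofructokinases, which make fructose 1,6-bisphosphate with ATP, rose in 1 of 4 tested cases on either scale. Calls of a rise covered 28% of all tested genes as deposited and 8.1% after rescaling. PFK7 (AT5G56630, chr5:22923804-22926963), a cytosolic form, was at 2.6 and 2.59 RPKM in P+, 6.42 and 5.91 in P- and 3.41 and 3.95 in phl2. Its wild-type libraries agreed closely within each group, and the phl2 columns lay between the groups. It rose by 0.99 ± 0.15 (adjusted p = 0.00244) as deposited and 0.58 ± 0.12 (adjusted p = 0.0209) after rescaling. PFK1, the highest of the family with phosphate, was at 4.72 and 3.39 RPKM in P+ and 4.77 and 4.0 in P-, and these groups overlapped. Its change of 0.10 ± 0.18 (adjusted p = 0.671) was not called and its sign turned after rescaling, to -0.30 ± 0.12 (adjusted p = 0.135). PFK4 and PFK5, plastid forms of the enzyme, had log2 changes of 0.12 ± 0.16 (adjusted p = 0.551) and 0.50 ± 0.17 (adjusted p = 0.0558), neither called, and PFK4 too was below 0 after rescaling (-0.14). PFK7 accounted for 24.0% of the summed PFK level in P+, 35.4% in P- and 35.3% in phl2. PFK7 and PFK3 share an exact stretch of 51 bases, where reads may be divided between them.

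The pyrophosphate-dependent enzyme PFP runs the same step in both directions and has regulatory alpha and catalytic beta subunits. The beta gene MEE51 (AT4G04040, chr4:1939113-1943024) was at 1.23 and 1.37 RPKM in P+, 3.41 and 2.85 in P- and 1.44 and 1.66 in phl2. It rose by 0.84 ± 0.17 (adjusted p = 0.00874) as deposited and missed the threshold after rescaling (0.49 ± 0.14, adjusted p = 0.0507). The other beta gene, AT1G12000 (chr1:4049896-4053871), had the highest PFP level, with 3.69 and 2.85 RPKM in P+, 5.05 and 5.01 in P- and 2.87 and 3.31 in phl2. Its rise of 0.51 ± 0.16 (adjusted p = 0.0432) became 0.10 ± 0.12 (adjusted p = 0.578) after rescaling and was not called. Of the alpha genes, AT1G20950 (chr1:7297239-7301633) was at 1.09 and 1.12 RPKM in P+, 2.32 and 1.88 in P- and 1.13 and 1.3 in phl2, a rise of 0.56 ± 0.17 (adjusted p = 0.0362) as deposited that was not called after rescaling (0.24). AT1G76550 had a log2 change of 0.40 ± 0.20 (adjusted p = 0.141) and was not called. Across both kinds of phosphofructokinase 4 of 8 tested genes rose as deposited and 1 of 8 after rescaling, where 28% and 8.1% of all tested genes did. In phl2 PFK7 (-0.61 ± 0.18, adjusted p = 0.0477) and MEE51 (-0.69 ± 0.20, adjusted p = 0.0485) fell as deposited, with the spread taken from wild type, and after rescaling neither was called (-0.01 and -0.19).

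**Figure D2:**
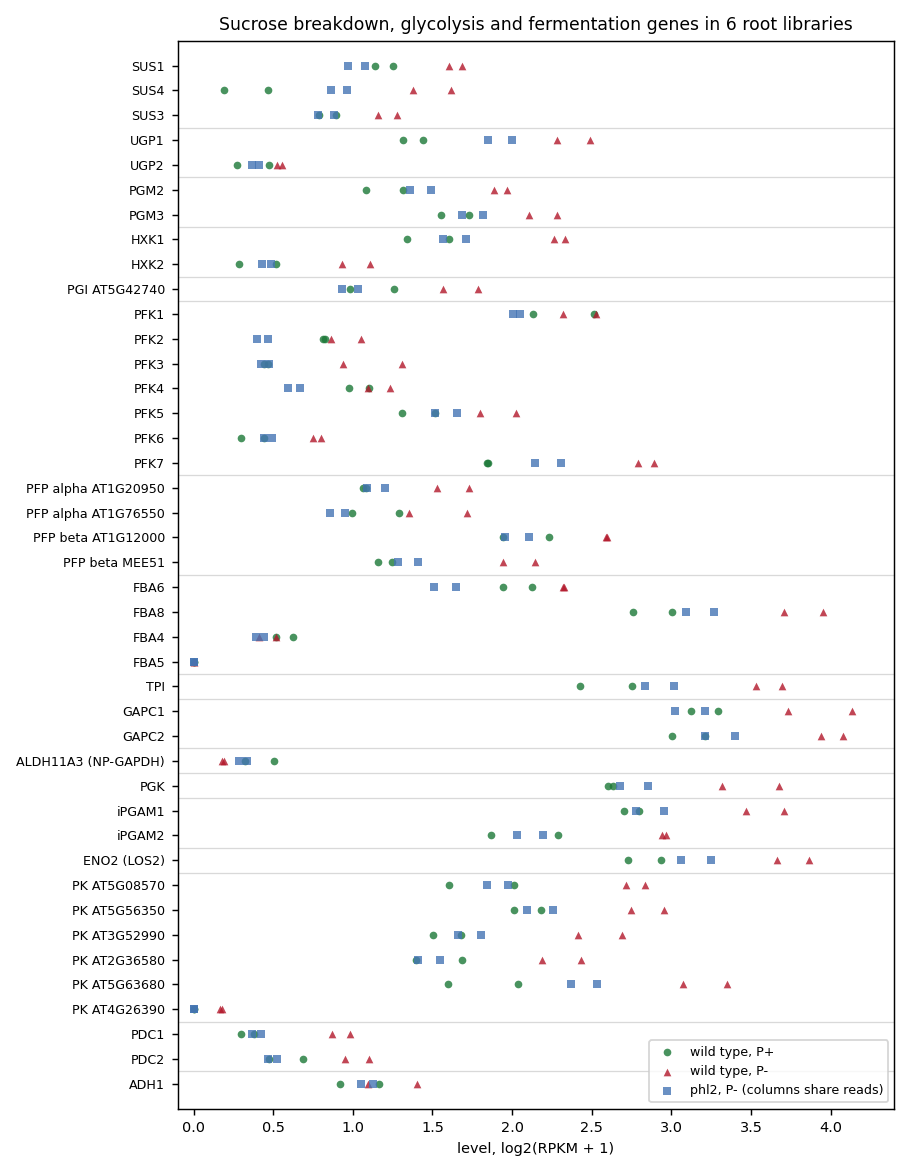
Level of each of the 42 genes in the 6 columns, as log2(RPKM + 1), ordered by pathway step with grey lines between steps. Green circles are P+ wild type, red triangles P- wild type and blue squares the phl2 columns, which share reads. The red triangles lie right of both green circles in 28 of the 31 tested genes, as in 62.1% of all tested genes, and in 8 of the 11 others. For genes below the level for testing the share over the whole table was not computed.

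The lower arm of the pathway, from aldolase to pyruvate, held the highest levels and the largest share of calls. As deposited 13 of its 14 tested genes rose in deficiency, where 28% of all tested genes were called higher. After rescaling 6 of 14 (42.9%) rose, where 8.1% of all tested genes did. Of the 8 tested genes upstream of phosphofructokinase, SUS4 and SUS3 included, 6 rose as deposited and 3 (37.5%) after rescaling, a share near that of the lower arm. The log2(RPKM + 1) scale understates changes of low genes, and its part in these shares of calls was not tested. In phl2 the median log2 difference of the 14 was -0.73 as deposited and -0.10 after rescaling, beside -0.48 and -0.009 for all tested genes. The median log2 change of the 14 in deficiency was 0.89 as deposited and 0.45 after rescaling.

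Aldolase splits fructose 1,6-bisphosphate into triose phosphates. FBA8 (AT3G52930, chr3:19626748-19629204) was at 5.78 and 7.02 RPKM in P+, 14.4 and 12.1 in P- and 7.52 and 8.65 in phl2, with no overlap between the groups. It rose by 0.95 ± 0.15 (adjusted p = 0.00362) as deposited, and after rescaling its change of 0.49 ± 0.17 (adjusted p = 0.0966) was not called. FBA6 (AT2G36460, chr2:15296613-15298754) was at 3.36 and 2.84 RPKM in P+, 4.01 and 4.0 in P- and 1.85 and 2.14 in phl2. Its P- libraries were the highest, but the change of 0.29 ± 0.15 (adjusted p = 0.165) was not called and turned to -0.10 ± 0.12 (adjusted p = 0.587) after rescaling. FBA8 made up 64.1% of the summed aldolase level in P+, 75.1% in P- and 77.6% in phl2. Triose phosphate isomerase, TPI (AT3G55440, chr3:20553403-20556560), interconverts the products and was at 5.74 and 4.37 RPKM in P+, 11.9 and 10.5 in P- and 6.13 and 7.08 in phl2. TPI rose by 1.02 ± 0.16 (adjusted p = 0.0031) as deposited and 0.58 ± 0.11 (adjusted p = 0.0165) after rescaling. In phl2 FBA6, FBA8 and TPI fell as deposited, by 0.74, 0.65 and 0.68 (adjusted p = 0.0422, 0.0469 and 0.0461), and after rescaling the differences were -0.20, 0.02 and -0.03, none called.

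Phosphorylating glyceraldehyde-3-phosphate dehydrogenase had the highest mean levels of the pathway over the 6 columns. GAPC1 (AT3G04120, chr3:1080942-1083690) was at 8.81 and 7.72 RPKM in P+, 16.5 and 12.3 in P- and 7.14 and 8.25 in phl2, where phl2 and P+ overlapped. GAPC2 (AT1G13440, chr1:4608077-4610878) was at 8.27 and 7.02, 15.9 and 14.4 and 8.25 and 9.54 RPKM, again with the P- libraries alone at the top. GAPC2 rose by 0.90 ± 0.14 (adjusted p = 0.00295) as deposited and 0.44 ± 0.11 (adjusted p = 0.0361) after rescaling. GAPC1 rose by 0.72 ± 0.16 (adjusted p = 0.0148) as deposited, and its rescaled change of 0.26 ± 0.13 (adjusted p = 0.214) was not called. Both fell in phl2 as deposited, with differences of -0.81 ± 0.20 (adjusted p = 0.0416) for GAPC1 and -0.70 ± 0.17 (adjusted p = 0.0408) for GAPC2, and were at -0.14 and -0.03 after rescaling, neither called. The pair shares an exact stretch of 53 bases, where reads may be divided between them.

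The non-phosphorylating enzyme ALDH11A3 (AT2G24270, chr2:10326918-10330048), which oxidises glyceraldehyde 3-phosphate without taking up phosphate, was the 1 member of the 42 with both P- libraries below both P+ libraries. It was at 0.25 and 0.42 RPKM in P+, 0.14 and 0.13 in P- and 0.22 and 0.26 in phl2. Both phl2 columns lay above the P- libraries. These values rest on about 6 and 10 reads in P+ and 3 and 3 in P-, below the level for testing. In the fit without that filter the log2 change was -0.23 ± 0.09 (limma, adjusted p = 0.184) and was not called.

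The next enzymes carry 1,3-bisphosphoglycerate to phosphoenolpyruvate. Phosphoglycerate kinase, PGK (AT1G79550, chr1:29924023-29926636), returns the phosphate to ADP and was at 5.2 and 5.06 RPKM in P+, 11.8 and 8.99 in P- and 5.39 and 6.23 in phl2. PGK rose by 0.88 ± 0.16 (adjusted p = 0.00587) as deposited and missed the threshold after rescaling (0.43 ± 0.13, adjusted p = 0.0656). The mutase gene iPGAM1 (AT1G09780, chr1:3165370-3167924) was at 5.95 and 5.5 RPKM in P+, 12.1 and 10.1 in P- and 5.85 and 6.76 in phl2, while iPGAM2 (AT3G08590, chr3:2608308-2611555) was at 3.89 and 2.65, 6.82 and 6.68 and 3.09 and 3.57. For both mutases the P- libraries stood above the other 4 columns, which overlapped. They rose by 0.84 ± 0.14 (adjusted p = 0.00481) and 0.88 ± 0.17 (adjusted p = 0.00922) as deposited, and neither was called after rescaling (0.39 and 0.46). Enolase, ENO2 (AT2G36530, chr2:15320756-15324129, also named LOS2), was at 6.64 and 5.63 RPKM in P+, 13.6 and 11.7 in P- and 7.35 and 8.5 in phl2, with phl2 between the wild-type groups. ENO2 rose by 0.93 ± 0.15 (adjusted p = 0.00322) as deposited and 0.48 ± 0.11 (adjusted p = 0.0279) after rescaling. As deposited PGK, iPGAM1, iPGAM2 and ENO2 fell in phl2, by 0.73, 0.72, 0.84 and 0.60 (adjusted p = 0.0433, 0.0412, 0.0422 and 0.0487). After rescaling the differences were -0.08, -0.07, -0.24 and 0.06, none called.

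Pyruvate kinase, which makes ATP and pyruvate from phosphoenolpyruvate, was the step with the most tested genes that rose, 5 of 5 as deposited and 3 of 5 after rescaling. Of all tested genes 28% and 8.1% rose on these scales. AT5G63680 (chr5:25490065-25492763) was at 3.11 and 2.02 RPKM in P+, 9.17 and 7.43 in P- and 4.16 and 4.8 in phl2. On the log2(RPKM + 1) scale it had the largest change of the 31 tested genes, 1.39 ± 0.19 (adjusted p = 0.00173) as deposited and 0.98 ± 0.14 (adjusted p = 0.00547) after rescaling. The 3 groups did not overlap, and its phl2 difference of -0.76 ± 0.23 (adjusted p = 0.0506) just missed the threshold. Of the level summed over the 6 pyruvate kinases among the 42, AT5G63680 held 20.8% in P+, 28.3% in P- and 30.1% in phl2.

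Both other pyruvate kinases that rose on the 2 scales had phl2 columns near P+ as deposited. AT5G08570 (chr5:2778000-2780581) was at 3.04 and 2.04 RPKM in P+, 6.14 and 5.56 in P- and 2.58 and 2.93 in phl2, a rise of 0.97 ± 0.18 (adjusted p = 0.00686) as deposited and 0.57 ± 0.13 (adjusted p = 0.0269) after rescaling. AT3G52990 (chr3:19648711-19652515) was at 2.2 and 1.84, 5.46 and 4.32 and 2.16 and 2.5 RPKM, a rise of 0.96 ± 0.17 (adjusted p = 0.00563) and 0.57 ± 0.12 (adjusted p = 0.0211). As deposited the phl2 columns of both overlapped the P+ libraries, and the P- libraries stood clear of them. After rescaling their differences in phl2 were -0.28 for AT5G08570 and -0.25 for AT3G52990, beside rises of 0.57 in each. AT5G56350 (chr5:22819936-22822904) was at 3.54 and 3.03, 6.74 and 5.7 and 3.27 and 3.78 RPKM and rose as deposited by 0.75 ± 0.16 (adjusted p = 0.0108). AT2G36580 (chr2:15339122-15343086) was at 2.21 and 1.63, 4.39 and 3.55 and 1.66 and 1.92 RPKM and rose as deposited by 0.77 ± 0.18 (adjusted p = 0.0158). Neither was called after rescaling (0.34 and 0.40). AT2G36580 and AT3G52990 share an exact stretch of 56 bases, the longest of any pair of members at 1 step. In phl2 the 4 genes other than AT5G63680 fell as deposited, by 0.67 to 0.87, and 0 were called after rescaling, at -0.30 to -0.07.

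Fermentation genes, whose products turn pyruvate into acetaldehyde and then ethanol, were low. ADH1 (AT1G77120, chr1:28975255-28977417), the alcohol dehydrogenase, was at 1.24 and 0.89 RPKM in P+, 1.64 and 1.14 in P- and 1.07 and 1.18 in phl2, and all 3 groups overlapped. Its change in deficiency was 0.21 ± 0.18 (adjusted p = 0.384) as deposited and -0.07 ± 0.14 (adjusted p = 0.779) after rescaling, with opposite signs. Its difference in phl2 was -0.16 ± 0.22 (adjusted p = 0.562) and turned to 0.25 ± 0.17 after rescaling. Pyruvate decarboxylase was below the level for testing. PDC2 (AT5G54960, chr5:22310553-22312832) was at 0.61 and 0.39 RPKM in P+, 1.15 and 0.93 in P- and 0.38 and 0.44 in phl2, and PDC1 at 0.30 and 0.23, 0.83 and 0.98 and 0.29 and 0.34. In both, the P- libraries stood above the other 4 columns.

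The remaining members below the level for testing did not exceed 1.48 RPKM in any library. UGP2, HXK2, PFK2, PFK3 and PFK6 were, like PDC1 and PDC2, higher in both P- libraries than in both P+ libraries. Per library these 5 rest on about 5 to 13 reads in P+ and 12 to 33 in P-. How often other genes below that level differ so was not computed. PFK3 had the largest ratio among these 5, with 0.36 and 0.38 RPKM in P+, 1.48 and 0.92 in P- and 0.34 and 0.39 in phl2. The pyruvate kinase AT4G26390 was listed at 0 in P+ and in phl2 and at 0.13 and 0.12 RPKM in P-, about 2 reads in each P- library. The aldolase FBA4 was at 0.43 and 0.54 RPKM in P+, 0.33 and 0.43 in P- and 0.31 and 0.36 in phl2, with P- overlapping both other groups, and FBA5 was listed at 0 throughout.

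Summed by step, 16 of the 17 steps had a higher mean in P- than in P+, by 1.30-fold for ADH1 to 2.55-fold for pyruvate decarboxylase, and ALDH11A3 stood at 0.401 of its P+ mean. Summed GAPC was 15.9 ± 1.65 RPKM in P+ and 29.5 ± 4.08 in P- (SD, n = 2), with 16.6 in phl2. Summed pyruvate kinase was 12.3 ± 2.49 RPKM in P+ and 29.4 ± 3.80 in P-, with 14.9 in phl2. Summed PFK was 10.8 ± 1.40 RPKM in P+, 17.4 ± 2.07 in P- and 10.4 in phl2. Summed PFP, the other enzyme of that step, was 6.89 ± 0.80 RPKM in P+, 12.2 ± 1.26 in P- and 6.72 in phl2. These sums are as deposited and carry the upward shift of the table.

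**Figure D3:**
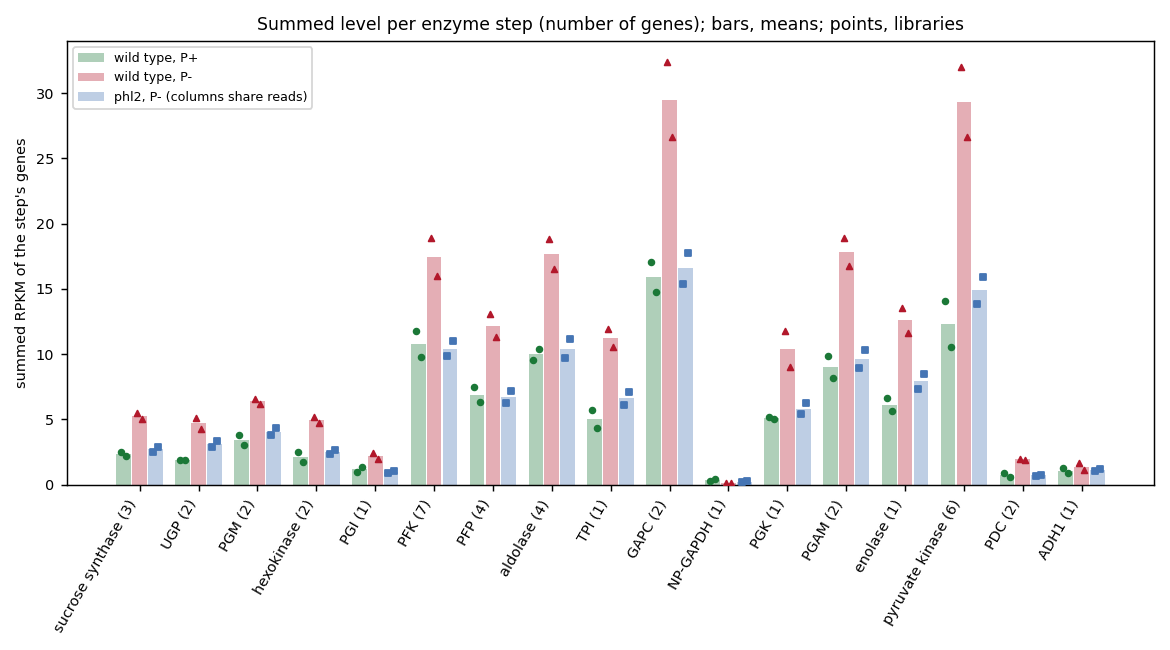
Summed RPKM of the genes of each enzyme step, as deposited, with bars for the mean of each group and points for its 2 columns. Numbers in brackets count the genes summed. Summed GAPC and pyruvate kinase are the highest steps, near 29 RPKM in P- wild type, and the fermentation steps (PDC and ADH1) stay at or below 1.99 RPKM.

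Ratios between enzymes within a library do not depend on how the library was scaled. With 2 libraries against 2 the smallest two-sided p of an exact permutation test is 0.333, so no ratio could reach the threshold. In all 6 were computed, 1 of them, cytosolic over plastid genes, after the data were seen. One ratio set the sucrose synthases SUS1, SUS3 and SUS4 over the cytosolic invertases CINV1 and CINV2, the competing route of sucrose breakdown. It stood at 0.266 and 0.296 in P+, 0.659 and 0.691 in P- and 0.72 in both phl2 columns. Here the mutant was with the deficient wild type and not with the libraries given phosphate. The summed invertases were at 7.44 to 9.39 RPKM in P+, 7.31 to 8.35 in P- and 3.48 to 4.02 in phl2, and the summed synthases at 2.2 to 2.49, 5.06 to 5.5 and 2.51 to 2.9.

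ALDH11A3 over GAPC, the bypass over the phosphorylating enzyme, was 0.0147 and 0.0288 in P+, 0.00435 and 0.00488 in P- and 0.0144 in phl2. It was lower in both deficient wild-type libraries, and the phl2 value lay near the lower P+ library. PFP over PFK, the pyrophosphate-dependent over the ATP-dependent enzyme, was 0.631 and 0.644 in P+, 0.692 and 0.708 in P-, and 0.635 and 0.655 in phl2. The log2 shift of 0.14 became -0.17 when genes with an exon opposite to another gene were left out, so its direction depended on which members were summed. Pyruvate decarboxylase plus ADH1 over pyruvate kinase was 0.153 and 0.143 in P+, 0.113 and 0.114 in P-, and 0.126 and 0.122 in phl2. That log2 shift of -0.38 became 0.07 with opposite-strand genes left out. This removed ADH1 itself and the pyruvate kinases AT5G08570, AT2G36580 and AT4G26390, so the value no longer describes the same ratio. UDP-glucose pyrophosphorylase over hexokinase was 0.762 and 1.1 in P+, 0.979 and 0.913 in P- and 1.25 in phl2, and the wild-type groups overlapped (exact permutation p = 1.0). The exact permutation p of each of the other 4 was 0.333, and adjusted over the 6 ratios (Benjamini-Hochberg) these values became 0.4 and 1.0.

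**Figure D4:**
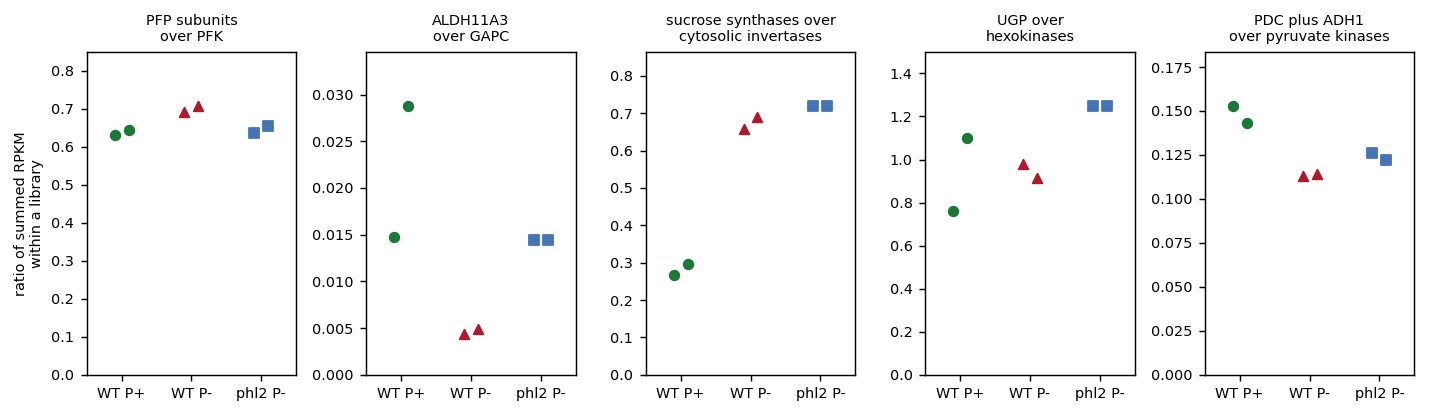
Ratio of summed RPKM between enzyme groups within each library, with each axis starting at 0; circles are P+ wild type, triangles P- wild type and squares the phl2 columns. Sucrose synthase over cytosolic invertase lies at 0.266 and 0.296 in P+ and at 0.659 to 0.72 in both deficient groups, and UDP-glucose pyrophosphorylase over hexokinase overlaps between the wild-type groups.

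Other genes of sugar metabolism, 54 in number and 32 of them tested, were called in both directions. As deposited 17 rose and 1 fell in deficiency (53.1% and 3.12%), where 28% of all tested genes were called higher and 4.45% lower. After rescaling 5 rose and 4 fell (15.6% and 12.5%), where 8.1% of all tested genes were called higher and 11.7% lower. The falls thus lay near the share over all genes. Medians were 0.53 and 0.12. The largest rise was in sucrose synthesis. The sucrose phosphate synthase gene SPS4F was at 0.70 and 0.84 RPKM in P+ and 5.03 and 4.69 in P-, and SPS1F at 1.31 and 1.21 and 6.09 and 5.15. Their log2 changes were 1.73 ± 0.16 (adjusted p = 3.00e-04) and 1.55 ± 0.16 (adjusted p = 4.82e-04) as deposited, and 1.37 and 1.17 after rescaling, both called. A further pyruvate kinase gene outside the 42, AT3G04050, was at 0.83 and 1.11 RPKM in P+ and 4.62 and 5.51 in P-, a rise of 1.62 ± 0.17 (adjusted p = 4.92e-04) as deposited and 1.25 after rescaling, also called. Of the fructokinases, which phosphorylate the fructose that sucrose synthase releases, AT2G31390 rose on both scales (0.89 ± 0.14, adjusted p = 0.00372 as deposited). The fructokinase AT5G51830 reached 1 RPKM in P- alone, with 0.37 and 0.41 RPKM in P+ and 1.78 and 1.14 in P-, and AT3G59480 in P+ alone, with 1.74 and 1.31 and 0.49 and 0.45, so the group where each was high brought it into the test that called it higher or lower. SPS4F, PCK2, the hexokinase gene HKL1 and the plastid pyruvate kinase gene PKp3 likewise reached it in deficient columns alone and were called higher as deposited. The counts of rises and falls above include all of these genes and were not redone without them, which limits their comparison with the shares over all genes. As deposited the vacuolar invertase gene VI2 (0.84 ± 0.16, adjusted p = 0.00736) and the phosphoenolpyruvate carboxykinase gene PCK2 (0.78 ± 0.16, adjusted p = 0.0101) also rose, and neither was called after rescaling. The cytosolic invertase CINV1 was at 9.03 and 7.06 RPKM in P+ and 7.73 and 6.75 in P-, not called as deposited and lower after rescaling (-0.57 ± 0.11, adjusted p = 0.0165), as were ALDH2B7 (-0.83 ± 0.12, adjusted p = 0.00636) and the vacuolar invertase VI1 (-0.43 ± 0.11, adjusted p = 0.0457).

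In phl2 the median log2 difference of these 32 was -0.52 as deposited and 0.02 after rescaling, beside -0.48 and -0.009 for all tested genes. After rescaling the 32 ranged from -0.45 to 0.43. All 3 tested sucrose phosphate synthases were at -0.74 to -0.77 as deposited and -0.28 to -0.17 rescaled. CINV1 was at 3.14 and 3.63 RPKM in phl2, a log2 difference of -0.91 as deposited and -0.30 rescaled. As deposited the aldehyde dehydrogenase gene ALDH2C4 was at -0.97 and the fructokinase AT2G31390 at -0.76.

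Genes known to mark oxygen shortage were examined beside the fermentation genes, and 7 of 11 were tested. In deficiency HB1 (a haemoglobin gene, log2 change 0.80) and ETR2 (an ethylene receptor gene, 0.63) were called higher as deposited, where 28% of all tested genes were. Both reached the level for testing in deficient columns alone, so the columns where they were high brought them into the test. After rescaling 0 were called (limma), where 8.1% of all tested genes were called higher and 11.7% lower. An unadjusted p under 0.05 was then reached by 3 of the 7 and by 4028 of all 11463 tested genes. The summed level of the 11 was 9.11 to 11.8 RPKM in P+, 13.8 to 14.2 in P- and 7.64 to 8.26 in phl2. HRA1, a transcription factor gene of the low-oxygen response, was at 0.64 and 0.91 RPKM in P+, 1.02 and 1.05 in P- and 0.33 and 0.27 in phl2. It reached the level for testing through P- alone, and no test of it is given.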

How the data were processed

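Values are RPKM, deposited by the authors as 1 table. TopHat2, DESeq2 and TAIR10 appear in the submitters' processing notes, and the labels describe strand-specific libraries made with dUTP. Neither the counter, nor the strand counted, nor the read totals used as denominators is given in the sources used here. From the steps between low values, 1 RPKM in a gene of 1 kb rests on about 9.4 to 12.8 reads. Read numbers are approximate, and intervals from them were not computed.

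Genes that reached 1 RPKM in at least 2 columns, 11463 in all, were analysed as log2(RPKM + 1), a scale that understates changes of low genes. limma 3.58.1 (R 4.3.3) fitted 3 group means to 5 samples (variance trend, 2 residual degrees of freedom), with the phl2 columns averaged. Their read numbers were equal, to a relative tolerance of 0.001, in 17207 of 21237 genes. Tests were two-sided, with Benjamini-Hochberg adjustment over all tested genes. Errors of log2 values are standard errors. Rescaled values were divided by each library's median ratio to the geometric mean (0.98, 0.82, 1.34, 1.21 and 0.77 for libraries 1 to 4 and phl2). The fit was run on simulated data with independent noise and no shift across all genes. That run thus cannot show how often such a shift leads to false calls. Ratios used exact permutation tests (scipy 1.17.1). Coordinates and sequences are from RefSeq, TAIR10.1, 1-based. Alternatives tried were other scalings, a pseudocount of 0.1, no filter, both phl2 columns, genes with no opposite-strand exon (32 of the 42 members) and leaving out each library.

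Members and gene lists were chosen with earlier results of these data known. Values in every library are given for members called in either comparison and for the highest member of each step, and of other lists up to 8 called genes with the smallest adjusted p are named.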

Additional observations from a re-analysis of the deposited data

How the results depend on the processing

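The count of 23 of 31 genes that rose in deficiency became 10 of 31 after rescaling, 8 of 24 after rescaling over genes with no opposite-strand exon and 1 of 41 without the filter on low values, and was 17 after quantile normalization, 21 with a pseudocount of 0.1, and 26 with both phl2 columns as replicates (17 rescaled). Leaving out 1 library gave 0 to 23, rescaled fits included. Of the 15 that fell in phl2, 0 were called after rescaling, quantile normalization, a pseudocount of 0.1, no filter, rescaling with both phl2 columns as replicates or rescaling over genes with no opposite-strand exon. Both phl2 columns as replicates gave 29, and leaving out 1 library 0 to 22. The causes were not tested. Values of the tested members rest on about 4 to 300 reads per gene and library, with a median of 69, which limits the calls. Signs of single genes turned, for the log2 change in deficiency: after rescaling, -0.30 for PFK1, -0.14 for PFK4, -0.099 for FBA6 and -0.066 for ADH1; after quantile normalization, -0.21 for PFK1, -0.20 for PFK4, -0.018 for FBA6 and -0.12 for ADH1; rescaled with both phl2 columns as replicates, -0.30 for PFK1, -0.14 for PFK4, -0.10 for FBA6 and -0.066 for ADH1; over genes with no opposite-strand exon, rescaled, -0.17 for PFK4 and -0.15 for FBA6. Leaving out 1 library, as deposited or rescaled, gave -0.0059 to 0.43 for SUS3, -0.40 to 0.29 for PFK1, -0.16 to 0.19 for PFK4, -0.032 to 0.58 for the PFP alpha gene AT1G76550, -0.15 to 0.38 for FBA6 and -0.16 to 0.36 for ADH1. Signs of single genes turned, for the log2 change of phl2 against deficient wild type: after rescaling, 0.11 for UGP1, 0.0011 for PGM2, 0.11 for PGM3, 0.18 for PFK1, 0.19 for PFK5, 0.024 for the PFP beta gene AT1G12000, 0.024 for FBA8, 0.063 for ENO2 and 0.25 for ADH1; after quantile normalization, 0.047 for SUS3, 0.034 for UGP1, 0.046 for PGM3, 0.089 for PFK1, 0.17 for PFK5 and 0.31 for ADH1; rescaled with both phl2 columns as replicates, 0.11 for UGP1, 0.0059 for PGM2, 0.11 for PGM3, 0.19 for PFK1, 0.20 for PFK5, 0.030 for the PFP beta gene AT1G12000, 0.031 for FBA8, 0.069 for ENO2 and 0.25 for ADH1; over genes with no opposite-strand exon, rescaled, 0.021 for SUS3, 0.17 for UGP1, 0.051 for PGM2, 0.16 for PGM3, 0.25 for PFK5, 0.053 for PFK7, 0.015 for the PFP alpha gene AT1G20950, 0.082 for the PFP beta gene AT1G12000, 0.090 for FBA8, 0.038 for TPI, 0.040 for GAPC2 and 0.13 for ENO2. Leaving out 1 library, as deposited or rescaled, gave -0.44 to 0.076 for SUS3, -0.56 to 0.15 for UGP1, -0.57 to 0.095 for PGM2, -0.53 to 0.14 for PGM3, -0.50 to 0.24 for PFK1, -0.43 to 0.25 for PFK5, -0.70 to 0.012 for PFK7, -0.58 to 0.022 for the PFP alpha gene AT1G20950, -0.64 to 0.084 for the PFP beta gene AT1G12000, -0.77 to 0.081 for FBA8, -0.91 to 0.032 for PGK, -0.71 to 0.10 for ENO2 and -0.31 to 0.34 for ADH1. Among the ratios within a library, leaving out genes with opposite-strand exons turned PFP over PFK to -0.17 (log2, P- minus P+). It turned UDP-glucose pyrophosphorylase over hexokinase to -0.43, with HXK1 left out and the low gene HXK2 alone in the denominator. Fermentation genes over pyruvate kinase turned to 0.071, with ADH1 left out. Leaving out 1 library gave -0.22 to 0.31 for UDP-glucose pyrophosphorylase over hexokinase. No paired analysis was possible because each replicate number occurs in only 1 group.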

Other observations

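The cytosolic copies of the lower pathway were also set against the plastid copies, a comparison chosen after the data were seen. Over the steps that both compartments share (aldolase, triose phosphate isomerase, glyceraldehyde-3-phosphate dehydrogenase, phosphoglycerate kinase, enolase and pyruvate kinase), the summed RPKM of 15 cytosolic genes over that of 10 plastid genes was 1.61 and 1.79 in P+, 2.35 and 2.26 in P-, and 1.9 and 1.91 in phl2. Both deficient wild-type libraries lay above both libraries given phosphate, a log2 difference of 0.44 (exact permutation p = 0.333, the smallest this design allows), and leaving out 1 library gave 0.37 to 0.52. The phl2 columns stood between the wild-type groups. Of the plastid genes, which include the enolase ENO1 and the pyruvate kinase subunit genes PKp1, PKp2 and PKp3, 9 of the 10 were tested, 3 of these (FBA3, ENO1 and PKp3) were called higher in deficiency as deposited and 0 after rescaling (limma, 1 at an unadjusted p under 0.05). Of all tested genes 28% were called higher as deposited and 8.1% after rescaling, and 4028 of the 11463 had an unadjusted p under 0.05 after rescaling (limma). PKp3 reached the level for testing in deficient columns alone.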
